A study of Mus musculus with 4 samples.

Results

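Sebaceous gland cells, the lipid-filled cells that make the sebum of the skin, were examined in single-cell RNA sequencing data of the mouse epidermis with and without the ceramide synthase CerS4. A barcode was kept as a cell when it held 1200 counts or more, of which no more than 20% were mitochondrial. A kept cell was chosen by its counts of Elovl3, Far2, Cyp2g1 and Awat2: the rounded counts of these 4 genes had to sum to at least 6, with at least 2 of the 4 detected. This rule found 68 sebaceous gland cells among 34150 kept cells, 11 of 8480 in control replicate 1, 2 of 9086 in control replicate 2, 24 of 9017 in CerS4epi-/- replicate 1 and 31 of 7567 in CerS4epi-/- replicate 2. Cers4 took no part in the choice.

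The study asked what CerS4 does in the epidermal stem cell compartments and their progeny. The 4 libraries came from back skin epidermis of C57BL/6N female mice at postnatal day 19, 1 library per mouse. The 2 control mice were CerS4fl/fl K14Cre-, so they carried the floxed alleles without Cre, and the 2 CerS4epi-/- mice were CerS4fl/fl K14Cre+, with Cre driven by the keratin-14 promoter. That promoter is active in the basal cells of the whole epidermis, so the sebaceous gland is 1 of several compartments that lose the gene, and a difference in its cells cannot be assigned to the loss of CerS4 within them. Single cells were captured in the microwells of the BD Rhapsody system, which tags every captured transcript molecule with a random barcode (UMI), and counts are estimated UMI counts. The 2 control libraries held 42619084 and 48497481 counts, and the 2 CerS4epi-/- libraries 53106317 and 39231945 counts. The cells had been labelled with a multiplexing kit, and which mice shared a cartridge is not given in the sources used here. No kept barcode was shared between the 2 control mice or between the 2 CerS4epi-/- mice, while 64 to 102 kept barcodes were shared by each pair of mice of different genotype. If the mice of a genotype were run on a common cartridge, genotype and cartridge cannot be told apart. None of the 68 sebaceous gland cells carried a barcode kept in another mouse.

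Sebocytes arise from basal progenitors at the edge of the gland, enlarge as they fill with lipid droplets, and break down to release sebum into the hair canal through a duct lined by Krt79-positive keratinocytes. Sebum is built from wax esters, triglycerides and sterol esters, so a maturing sebocyte runs fatty acid synthesis and elongation, desaturation, reduction to fatty alcohols, and esterification at high rates. CerS4 is a ceramide synthase: it joins a long-chain fatty acid to a sphingoid base to make (dihydro)ceramide, the common precursor of sphingomyelin and glucosylceramide.

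The cells differed in number and depth between the mice. The median depth of the sebaceous gland cells was 20599 and 11846 counts for the controls, and 19142 and 11057 counts with CerS4 deleted, against 3322.5, 3266.5, 3884 and 3348 counts over all kept cells of the same mice. Their summed counts were 220027 and 23648 for the controls, against 453954 and 430740 with CerS4 deleted. The control group therefore rested on control replicate 1 and on 2 cells of control replicate 2, in which 0 counts of a gene still allow up to 3 counts, or 105 CPM (counts scaled to a total of 1000000). Across the genes tested, the log CPM of the CerS4epi-/- mice correlated with a Pearson r of 0.953 and those of the control mice with 0.633, a description across genes, which are not independent replicates. Levels in sebaceous gland cells are given as CPM of the summed counts of a mouse after TMM scaling, always in the order control replicate 1, control replicate 2, CerS4epi-/- replicate 1, CerS4epi-/- replicate 2.

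The cells carried the genes of sebocytes beyond the 4 used to choose them. Soat1, which makes sterol esters, was at 5453, 2069, 2181 and 2916 CPM. Mgst1, a microsomal glutathione transferase and a known marker of the gland, was at 4922, 5330.2, 3176 and 3325 CPM. Ces4a, a carboxylesterase, was at 611, 35.1, 1721 and 1625 CPM, with a single count in control replicate 2. Of the 7 marker genes, Cyp2g1 was thus the only marker at 0 in a mouse, with 1228, 0, 516 and 347 counts, and its levels among the 11 cells of control replicate 1 ran from 8 to 205 counts. Immune cells left next to no signal in these cells: the 15 T cell markers summed to 1, 0, 1 and 0 counts. The 13 Langerhans cell markers summed to 8, 1, 44 and 34 counts, most of them of the epithelial gene Epcam, and Cd207, the langerin gene, was at 0 in all 4 mice. Collagen genes, Pdgfra and the melanocyte genes Dct and Pmel were at 0 as well. No cell held 2 or more immune counts, and 5 of 68 held at least 20 counts of Krt1 and Krt10, the keratins of differentiating interfollicular cells. Doublets were not called.

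Ranked by the fold of their level over all other kept cells of the same mouse, among 524 genes with at least 200 CPM in the sebaceous gland cells of every mouse, the leading genes included Fa2h, Elovl3, Panx3, Far2, Soat1, Cidea, Cers4, Pparg, Tmem45b, Mgst1 and Elovl6. This ranking is a description, since the cells were chosen by their expression. Fa2h, the fatty acid 2-hydroxylase whose products enter 2-hydroxylated sphingolipids, led with a geometric mean fold of 12522 and stood at 10474, 5189.9, 8548 and 9622 CPM. Pparg, the nuclear receptor required for sebocyte differentiation, was at 576, 421, 359 and 397 CPM. Panx3, a channel-forming pannexin, was at 661, 421, 422 and 458 CPM. Elovl6, which elongates palmitate, was at 21588, 16306, 17809 and 19342 CPM. For the leading genes other than Elovl3, Far2 and Cers4 the levels of the 4 mice lay within the same order of magnitude. Tmem45b was at 372, 210.4, 474 and 475 CPM.

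Cers4 itself (ENSMUSG00000008206.17; GRCm39 chromosome 8, 4542809 to 4581680, plus strand) ranked seventh among the leading genes even with the CerS4epi-/- mice included, with a geometric mean fold of 674 over all other cells. Its levels were 3144 and 3296 CPM in the control mice and 302 and 456 CPM in the CerS4epi-/- mice, from 633, 94, 131 and 186 counts in the same order. It fell in the CerS4epi-/- mice (log2 fold change -3.09, SE 0.33, adjusted p 0.0188) in edgeR's quasi-likelihood test over the sums per mouse. Cell by cell, control replicate 1 ranged from 31 to 80 counts with a median of 61, and the 2 cells of control replicate 2 held 27 and 67 counts. The cells of CerS4epi-/- replicate 1 ranged from 0 to 25 counts with a median of 5, and those of CerS4epi-/- replicate 2 from 0 to 27 with a median of 4. On the raw counts the ranges met only at 27, which 1 control cell and the highest cell of CerS4epi-/- replicate 2 both held. Counts did not vanish: 18 of 24 and 26 of 31 cells of the CerS4epi-/- mice held at least 1 count, and whether the remaining 3′ counts come from transcripts without the deleted exons was not checked. The call was lost when every mouse was reduced to 2 cells (log2 fold change -2.78, adjusted p 0.141) and without the cells of high Asprv1 described below, and it held in the other 17 of 19 alternatives.

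**Figure D1:**
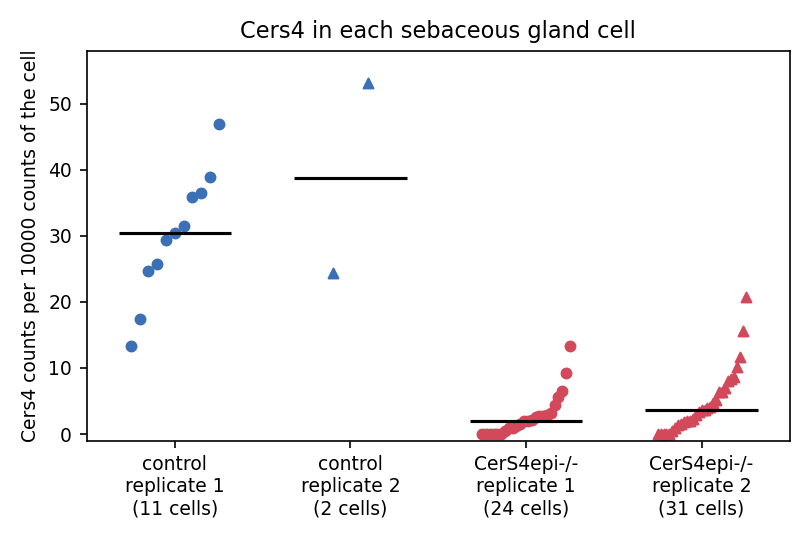
Cers4 counts per 10000 counts of the cell (y axis) in each sebaceous gland cell (point) of the 4 mice (x axis), with the median of each mouse as a black line. Medians were 30.4 and 38.7 in the control mice and 1.97 and 3.62 in the CerS4epi-/- mice.

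Cers4 was near the limit of detection in the keratinocytes set beside the gland. For comparison, 5072 Krt79-positive cells (at least 3 Krt79 counts; duct and upper follicle keratinocytes by that gene) and 13415 basal interfollicular cells (Krt5 and Krt14 above Krt1 and Krt10, no Krt79) were taken from the same mice. Cers4 was at 1.89, 5.93, 1.43 and 2.91 CPM in the Krt79-positive cells and at 1.91, 1.60, 1.43 and 1.78 CPM in the basal cells, plain CPM of their summed counts. The share of basal cells with a Cers4 UMI was 0.435%, 0.416%, 0.467% and 0.579% at median depths of 2770.5, 2623.5, 3153.5 and 2777 counts, the level read as background. After thinning every cell to 1200 counts, Cers4 was detected in 90.9%, 100%, 29.2% and 41.9% of the sebaceous gland cells and in 0.203%, 0.222%, 0.146% and 0.170% of the basal cells. T cells, a cell type that the keratin-14 promoter does not target, held a Cers4 UMI in 20.2%, 12.3%, 17.5% and 24.1% of cells at median depths of 1617.5, 1541, 1906 and 1777 counts.

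Among 4486 genes that passed the filter on low counts, 3 passed an adjusted p of 0.05 between the genotypes, which is 0.0669% of the genes tested. Of these, 2 rose (0.0446%) and 1, Cers4, fell (0.0223%). Without adjustment, 425 genes had a p under 0.05 in edgeR and 111 in DESeq2. Since so few genes passed, levels of the others are given below as values. Both CerS4epi-/- mice lay above both control mice in 24.9% of all genes tested and below both in 15.6%, and the median log2 fold change was 0.06. These shares are the background for every gene group. The number of called genes moved with the mice entered: it was 191 without control replicate 1, 408 without control replicate 2, and 24 and 28 without CerS4epi-/- replicates 1 and 2, where a group of 1 mouse is assumed to vary like the other group. All 3 genes named here were called in each of these 4 fits.

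Cd36 and Asprv1 were the genes that rose. Cd36 (ENSMUSG00000002944.16; GRCm39 chromosome 5, 17986432 to 18094067, minus strand), a scavenger receptor that takes up long-chain fatty acids and oxidized lipoproteins, was at 24.8 and 35.1 CPM in the control mice and 677 and 791 CPM in the CerS4epi-/- mice (log2 fold change 4.78, SE 0.46, adjusted p 0.0130). Among control cells 3 of 11 and 1 of 2 held it, with at most 3 counts, against 20 of 24 and 24 of 31 CerS4epi-/- cells, with up to 62 and 41 counts. In Krt79-positive and basal cells Cd36 was at no more than 0.424 CPM in any mouse, so the differences from the effect there, 5.44 (SE 2.50, adjusted p 0.575) and 1.13 (SE 2.31, adjusted p 0.955), had wide errors and did not pass the threshold. Asprv1 (ENSMUSG00000033508.9; GRCm39 chromosome 6, 86595254 to 86606692, plus strand) encodes the retroviral-like aspartic protease that processes profilaggrin in the upper epidermis. It had 4, 0, 396 and 333 counts, or 19.9, 0, 912 and 816 CPM (log2 fold change 5.63, SE 0.53, adjusted p 0.0130). It passed the filter on low counts through the CerS4epi-/- mice alone, so its call rests on the group where it was high. Of the CerS4epi-/- cells, 11 of 24 and 11 of 31 held a count, but most of the counts sat in a few cells, as described below. Without control replicate 1 the fitted change was 10.98, set against 0 counts in the 2 remaining control cells, so it is no bound.

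**Figure D2:**
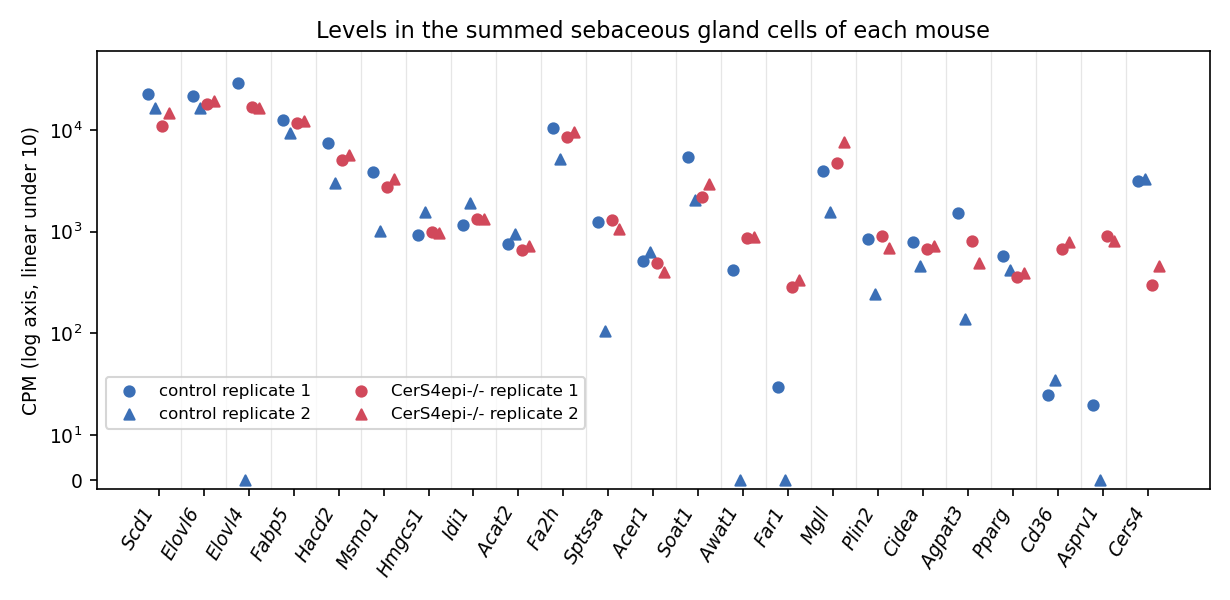
CPM in the summed sebaceous gland cells of each mouse (y axis, logarithmic above 10) for lipid genes and for Cd36, Asprv1 and Cers4 (x axis); blue, control; red, CerS4epi-/-; circles, replicate 1; triangles, replicate 2. The red and blue points are apart for Cd36, Asprv1 and Cers4, while for Elovl6, Fabp5 and Fa2h they interleave and Elovl4 is at 0 in control replicate 2.

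Fatty acid synthesis, elongation and desaturation showed no called gene. Of 32 genes in this list 23 were tested, 3 with both CerS4epi-/- mice above both control mice and 5 with both below, and the median log2 fold change was -0.05. Scd1, the stearoyl-CoA desaturase of the gland, was at 22765 and 16552 CPM in the control mice and 10821 and 14684 CPM in the CerS4epi-/- mice (log2 fold change -0.63, SE 0.22, adjusted p 0.418). Both CerS4epi-/- mice lay below both control mice. Its paralogue Scd3, in which reads may be shared with Scd1, had 478, 0, 92 and 2 counts, and in control replicate 1 the counts came from 6 of 11 cells with up to 356 in a cell. Elovl4, which elongates very-long-chain fatty acids, was at 28745, 0, 16812 and 16368 CPM, with 0 counts in the 2 cells of control replicate 2. Fabp5, a fatty acid carrier, was at 12485, 9258, 11618 and 12168 CPM, and Hacd2, a dehydratase of the elongation cycle, at 7444, 3016, 5033 and 5726 CPM. For both genes the ranges of the genotypes overlapped. Elovl7 was at 248, 0, 1824 and 1191 CPM and Elovl1 at 14.9, 0, 94.4 and 162 CPM, higher in both CerS4epi-/- mice than in both control mice, with adjusted p values of 0.16 and 0.199. Acly and Fasn, which make cytosolic acetyl-CoA and palmitate, were at 1445, 1508, 1099 and 1090.4 CPM and 814, 1017, 647 and 711 CPM.

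The list of wax and sterol ester genes had a median of 1.60 over 7 tested of 10 genes, with 4 genes above in both CerS4epi-/- mice, 0 below and 0 called. Its median was 1.00 without the filter on low counts, 1.04 without control replicate 2 and 9.05 without control replicate 1, where the control side was 2 cells with 0 counts of several of these genes, so that 9.05 is no bound. The median of this list was the highest among the lipid lists except without control replicate 2, where that of apolipoprotein and lipid transport genes was 1.34. Far1, a fatty acyl-CoA reductase that makes the fatty alcohols of wax esters and ether lipids, was at 29.8, 0, 286 and 333 CPM (log2 fold change 3.56, SE 0.48, adjusted p 0.0570). Awat1, an acyl-CoA wax alcohol acyltransferase, was at 417, 0, 871 and 877 CPM (log2 fold change 1.60, SE 0.66, adjusted p 0.497). Its fitted change ran from 0.04 over the alternatives that kept all mice to 10.99, no bound, with 1 mouse left out. Dgat2l6, a related acyltransferase, was at 44.7, 0, 279 and 233 CPM (log2 fold change 2.72, SE 0.47, adjusted p 0.0969), and Faah, a fatty acid amide hydrolase, at 74.5, 0, 239.5 and 216 CPM. All 4 were at 0 in the 2 cells of control replicate 2, where 0 allows up to 105 CPM. In both CerS4epi-/- mice Far1 and Dgat2l6 were far higher in the cells of high Asprv1 described below than in the other cells. No list median was computed without those cells. Soat1 overlapped between the genotypes (log2 fold change -0.58, SE 0.42, adjusted p 0.749), as did the peroxisomal acyltransferase Gnpat (log2 fold change 0.18, SE 0.30, adjusted p 0.920) and the fatty aldehyde dehydrogenase Aldh3a2 (log2 fold change 0.14, SE 0.48, adjusted p 0.961). Of the genes used to choose the cells, Elovl3 was at 779.7, 1403, 3238 and 3384 CPM, Far2 at 3427, 947, 4724 and 5217 CPM and Awat2 at 477, 140.3, 1011 and 629.7 CPM. These 3 values took part in the choice and are given without a test.

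Triglyceride and lipid droplet genes were tested in 18 of 31 cases, with 6 above, 2 below, 0 called and a median of 0.09. This median was 1.19 without control replicate 1 and -0.12 without control replicate 2. Mgll, which releases fatty acids from monoacylglycerols, was at 3918, 1578, 4743 and 7593 CPM (log2 fold change 1.14, SE 0.42, adjusted p 0.443), and Dgat1 and Dgat2, the acyltransferases of the last step of triglyceride synthesis, were at 209, 175, 477 and 461 CPM and 169, 140.3, 59.9 and 29.4 CPM, the former higher and the latter lower in both CerS4epi-/- mice (adjusted p 0.241 and 0.224). Cidea, a droplet fusion protein, was at 795, 456, 673 and 720.4 CPM, and Plin2, a droplet coat protein, at 854, 245, 903 and 698 CPM. Agpat3, a lysophosphatidic acid acyltransferase, was at 1519.7, 140.3, 806 and 497 CPM, and the 2 control mice lay on either side of the others. Bscl2, the seipin of droplet formation, was at 268, 281, 179.7 and 257 CPM. Plin4 had 0 counts in both control mice against 27 and 17 counts.

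Of the cholesterol genes 24 of 28 were tested, with 3 above, 7 below, 0 called and a median of -0.14. The summed level of the list was 23898, 24477, 20995 and 20688 CPM, with both CerS4epi-/- mice below both control mice. Hmgcs1, Idi1 and Acat2, of the early mevalonate pathway and its branch steps, were at 934, 1578, 1002 and 963 CPM, 1162, 1929, 1336 and 1328 CPM and 755, 947, 659 and 728 CPM. Msmo1, a sterol demethylase, was at 3879, 1017, 2773 and 3274 CPM. In the list of peroxisome and fatty acid oxidation genes, 26 of 32 were tested, with 5 above, 7 below, 0 called and a median of -0.06. Hsd17b4, of peroxisomal beta-oxidation, was at 988, 982, 603 and 542 CPM, and Abcd3, a peroxisomal transporter, at 879, 386, 329 and 272 CPM.

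The sphingolipid genes, among which CerS4 acts, were tested in 24 of 39 cases besides Cers4 itself: 8 above, 2 below, 0 called, median 0.14. The median was 1.63 without control replicate 1 and -0.02 without control replicate 2. Of the other ceramide synthases, Cers2 was at 4.97, 0, 34.5 and 53.9 CPM and Cers5 at 258, 0, 1289.9 and 451 CPM, higher in both CerS4epi-/- mice but without a call (adjusted p 0.323 and 0.381), and Cers1, Cers3 and Cers6 did not pass the filter on low counts. Sptssa, a small subunit of serine palmitoyltransferase, was at 1232, 105, 1289.9 and 1066 CPM, and Kdsr, the next enzyme of the de novo route, at 576, 210.4, 329 and 216 CPM. Degs1, the desaturase that makes ceramide from dihydroceramide, was at 402, 351, 375 and 483 CPM, with overlapping ranges. Acer1, the alkaline ceramidase of the epidermis, was at 516, 631, 488 and 404 CPM (log2 fold change -0.32, SE 0.31, adjusted p 0.837). Sgpp1, a sphingosine-1-phosphate phosphatase, was at 596, 281, 311 and 372 CPM. Its paralogue Sgpp2 had 0 counts in both control mice and 70 and 53 counts in the CerS4epi-/- mice, at least 11.2-fold higher when 3 counts are set over the control group (adjusted p 0.0919).

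Regulators of the sebocyte fate had a median of -0.36 over 13 tested of 20 genes, with 2 above, 5 below and 0 called. Cebpa was at 809.5, 877, 583 and 608 CPM and Foxo1 at 174, 175, 108 and 83.3 CPM, each lower in both CerS4epi-/- mice. Pparg belonged to the same 5 (log2 fold change -0.47, SE 0.31, adjusted p 0.713). Detoxification and retinoid genes had a median of 0.27 over 15 of 30 genes, 6 above, 5 below and 0 called, with Mgst1 lower in both CerS4epi-/- mice (log2 fold change -0.66, SE 0.23, adjusted p 0.403). Among 6 tested of 12 apolipoprotein and lipid transport genes, 3 were above, 0 below and 1 called, Cd36, with a median of 0.82. Apoe, the apolipoprotein of secreted lipid particles, was at 2483, 2840.4, 3296 and 4550.2 CPM (log2 fold change 0.56, SE 0.27, adjusted p 0.590).

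Genes of the Krt79-positive duct and upper follicle had the highest median of all lists of more than 1 tested gene, 3.59 over 10 tested of 17 genes, with 8 above in both CerS4epi-/- mice, 0 below and 0 called. With Sprr1a and Cldn4, at 0 in both control mice, set at their bounds, the median was 2.65. It was 3.37 to 3.46 without 1 of the other mice and 8.34, no bound, without control replicate 1, where that of the wax and sterol ester list was higher. Cst6, a cystatin of the upper follicle, was at 69.5, 0, 656 and 1056 CPM (log2 fold change 3.90, SE 0.57, adjusted p 0.0652). Krt17 was at 14.9, 0, 136 and 221 CPM (log2 fold change 3.73, SE 0.69, adjusted p 0.108) and Krt79 at 1083, 561, 1612 and 1661 CPM (log2 fold change 0.92, SE 0.35, adjusted p 0.450). Sprr1a, a cornified envelope precursor, had 0, 0, 49 and 72 counts, at least 11.0-fold higher. In both CerS4epi-/- mice Cst6 and Krt79 were higher in the cells of high Asprv1 described below, while Krt17 was higher there in replicate 2 only. The summed level of the list in the sebaceous gland cells was 1644, 631, 3238 and 3996 CPM, with Krt79 its most abundant gene in every mouse and 7, 14, 2 and 4 of 17 genes at 0. In the Krt79-positive cells themselves it was 43956, 38033, 58138 and 67299.9 CPM, and these cells numbered 924, 705, 1819 and 1624. RNA of Krt79-positive cells among the sebaceous gland cells was not tested as a part of this result.

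The remaining lists describe cell condition and other cell types. Mitochondrial transcripts had 10 above, 0 below and 0 called of 12 tested of 13, with a median of 0.31, and the median mitochondrial share of the sebaceous gland cells was 10.03%, 12.8%, 11.3% and 12.8%. Dissociation and heat shock genes had 1 above, 8 below and 0 called of 17 tested of 20, with a median of -0.67. That median was 0.02 without control replicate 1 and -0.84 to -0.42 without 1 of the other mice. Jun and Egr1, which respond within minutes to tissue dissociation, were at 3099, 1964, 1087 and 713 CPM and 785, 351, 265 and 243 CPM. Interferon and antigen presentation genes had 3 above and 0 below of 5 tested of 20, with H2-D1, a class I molecule, at 417, 351, 1016 and 1394 CPM (adjusted p 0.152). Interfollicular differentiation markers had 4 above and 0 below of 8 tested of 15 (median 0.52), basal and peripheral sebocyte genes 3 above and 1 below of 6 tested of 14 (median 0.30), and proliferation genes 2 above and 1 below of 4 tested of 20 (median 0.17). Bulge markers had 2 of 13 genes tested, and Langerhans cell markers (Epcam) and stress keratins and alarmins (Lcn2) 1 each, while no T cell, dermal or melanocyte marker passed the filter. None of these lists held a called gene.

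The counts of Asprv1 split the cells of the CerS4epi-/- mice. At least 5 counts were held by 5 of 24 cells, or 20.8% (exact 95% interval 7.13% to 42.2%), of CerS4epi-/- replicate 1 and by 6 of 31 cells, or 19.4% (7.45% to 37.5%), of CerS4epi-/- replicate 2. No cell of the control mice reached 5 counts. In control replicate 1 a count of 0 of 11 cells allows a share of up to 27.3%, above both of these shares, and the 2 cells of control replicate 2 set no limit. The limit of 5 counts was set after the values were seen, so the following levels are a description, as plain CPM of counts summed over cells. Values are given for the 5 cells of CerS4epi-/- replicate 1 and the 6 of replicate 2, in that order. They stand apart, since the pooled levels of these mice differed, and are set against the other 19 and 25 cells of the same mice. Scd1 was at 569 and 6547 CPM against 11981 and 15272 CPM. Pooled, it was lower in the cells of high Asprv1 in both mice, and far lower in replicate 1. The 6 cells of replicate 2 held 292, 106, 34, 2, 6 and 0 Scd1 counts, so 1 cell weighed heavily in their pooled level. Fa2h was at 399.9 and 4300.02 CPM against 9472 and 10006 CPM and Mgst1 at 508 and 1056 CPM against 3459.9 and 3537 CPM. Elovl6 was at 6014 and 11115 CPM against 18870.2 and 19656 CPM. Soat1 had 0 and 14 counts in these cells against 947 and 1176. Cers4 had 1 and 3 counts against 130 and 183, and Gja1, a gap junction gene, 0 and 0 against 143 and 147. All 7 of these genes, chosen after their values were seen, were lower in both mice.

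Other lipid genes, likewise chosen after their values were seen, did not all move one way in the same 11 cells. Elovl4, Dgat2l6, Far1, Plin2 and Elovl1 were higher in both mice, as were Far2 and Awat2, which took part in the choice of the cells. Apoe was lower in both mice, at 769 and 2024 CPM against 3550 and 4733 CPM. Elovl3 was higher in replicate 1 only and Cyp2g1 in replicate 2 only. Elovl4 was at 30024 and 32049 CPM against 13745 and 12448 CPM, Dgat2l6 at 1461 and 1249.8 CPM against 66.8 and 30.3 CPM, Far1 at 1046 and 1711 CPM against 144 and 57.8 CPM and Plin2 at 2938 and 2024 CPM against 517 and 409.8 CPM. Elovl1 was at 400 and 833 CPM against 38.6 and 27.5 CPM. Cidea was at 692 and 967 CPM against 635 and 629.8 CPM, near level in replicate 1. The keratinocyte genes looked at did not all move one way. Spink5, a serine protease inhibitor, was at 2461 and 1443 CPM against 100.2 and 27.5 CPM and Cst6 at 1661 and 4672 CPM against 455 and 322 CPM. Gsdma, a gasdermin of the upper epidermis, was at 954 and 803 CPM against 35.99 and 0 CPM, and Krt79 at 2538 and 3199 CPM against 1375 and 1273 CPM. These 4 were higher in both mice, whereas Krt17 was at 30.8 and 1027 CPM against 147 and 57.9 CPM, lower in replicate 1 and higher in replicate 2. The levels of Cst6 and Far1 in the 11 cells were thus over 1.5 times as high in replicate 2, and that of Spink5 over 1.5 times as high in replicate 1. Cd36 was at 2215 and 2098 CPM in the 11 cells and at 386 and 501 CPM in the others, all above the 24.6 CPM of the pooled control cells. Median depths were 18868 and 10490 counts in the cells of high Asprv1 and 19415 and 12526 in the others. Without the 11 cells, as an alternative added after the data were seen, 0 of 4172 genes were called by edgeR (330 at an unadjusted p under 0.05): Cd36 kept a log2 fold change of 4.10 and Cers4 one of -2.90, both at an adjusted p of 0.0556, and Asprv1 no longer passed the filter.

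**Figure D3:**
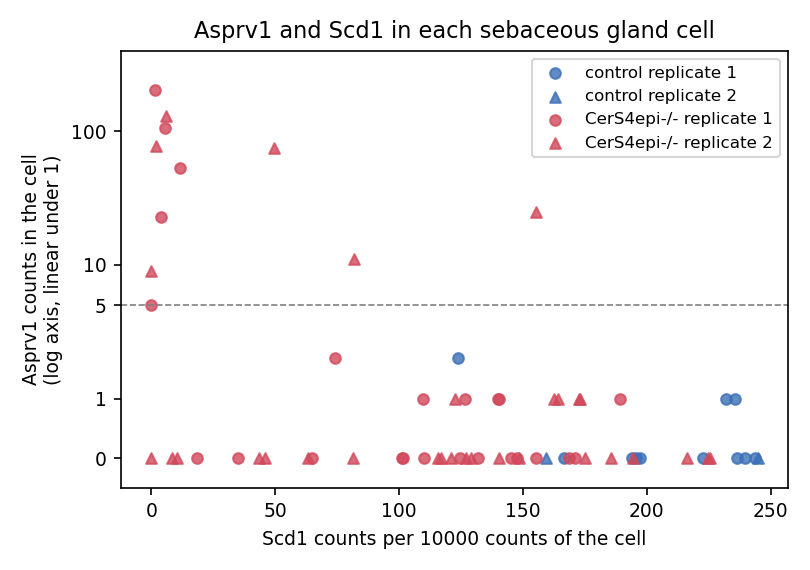
Asprv1 counts (y axis, logarithmic above 1) against Scd1 counts per 10000 counts of the cell (x axis) for each of the 68 sebaceous gland cells; colours and symbols mark the mice, and the dashed line is at 5 Asprv1 counts. The 11 cells on or above the line are all of the CerS4epi-/- mice, 5 of replicate 1 and 6 of replicate 2.

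Within each mouse the cells varied in how much of their RNA was devoted to lipid genes. The share of counts in the lists of fatty acid, wax and sterol ester and triglyceride genes had medians of 12.5%, 7.72%, 8.38% and 8.30% and ranged from 7.92% to 15.7% in control replicate 1, from 2.10% to 14.2% in CerS4epi-/- replicate 1 and from 0.796% to 13.0% in CerS4epi-/- replicate 2. Each mouse's cells were split at its median, as a range and not as types, with 1, 2, 8 and 2 cells within 0.5 percentage points of it. Control replicate 2, with 1 cell on each side, is left out of the values. Apoe was lower above the median, at 1604 against 2959 CPM in control replicate 1, 2211 against 4616 CPM in CerS4epi-/- replicate 1 and 2490.1 against 8754 CPM in CerS4epi-/- replicate 2. Krt15, a keratin of basal cells, was at 8.96 against 313 CPM in control replicate 1, 50.7 against 377 CPM in CerS4epi-/- replicate 1 and 167 against 87.9 CPM in CerS4epi-/- replicate 2, so the mice did not share a direction. Cells above the median were also deeper, with medians of 23343 against 16901, 22236 against 14585 and 21392 against 9507.5 counts.

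Whether a genotype effect differed between classes of cells was tested as the interaction of genotype and class, with the mouse as a term. Against Krt79-positive cells 27 of 4486 genes passed the threshold (0.602%), 13 with a higher effect in sebaceous gland cells (0.290%) and 14 with a lower effect (0.312%). Against basal interfollicular cells 8 passed (0.178%), 6 with a higher effect (0.134%) and 2 with a lower effect (0.0446%). Both tests use the same sebaceous sums, so they are not independent of each other. Within their own classes, 14.3% of 11580 genes were called between genotypes in Krt79-positive cells (8.26% higher, 6.01% lower) and 5.05% of 13051 genes in basal cells (3.20% higher, 1.85% lower), where many more cells were available. Without control replicates 1 and 2 and CerS4epi-/- replicates 1 and 2 in turn, the number against Krt79-positive cells was 74, 199, 19 and 12, and that against basal cells 113, 231, 22 and 17. Without the 11 cells of at least 5 Asprv1 counts, as an alternative added after the data were seen, 6 genes passed against Krt79-positive cells, all among the 27 and all with a lower effect in sebaceous gland cells (Carns1, Cidea, Gja1, Idh1, Mgst1 and Tmem64), and 2 passed against basal cells, Mgst1 and Tmsb4x, both among the 8. The 8 also held Cers4, with a lower effect in the gland, for which the basal cells were at background. Asprv1, Spink5 and Elovl1 no longer passed the filter without the 11 cells.

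Of the 13 genes with a higher effect, only Asprv1 was called in the sebaceous gland cells by themselves when all members and mice entered. Under the alternatives Far1 and Cst6 were called there in 13 of 19, Spink5 in 13 of 18 and Tmsb4x in 10 of 19, and the other 8 in 3 to 7 each. The effect of Asprv1 exceeded that in Krt79-positive cells by a log2 difference of 4.83 (SE 0.55, adjusted p 0.00611) and that in basal cells by 4.96 (SE 0.56, adjusted p 0.0111). Asprv1 stood at 517, 322, 776 and 927 CPM in the Krt79-positive cells, where it rose less. Spink5 was at 14.9, 0, 458 and 262 CPM in sebaceous gland cells and at 1436, 1437, 1213 and 1373 CPM in Krt79-positive cells, a difference of 4.89 (SE 0.69, adjusted p 0.0161), and it differed from basal cells by 5.14 (SE 0.66, adjusted p 0.0246). Far1 differed by 3.17 (SE 0.54, adjusted p 0.0393) and 3.49 (SE 0.49, adjusted p 0.0337), with Krt79-positive levels of 15.7, 17.8, 18.4 and 23.7 CPM. Cst6 differed by 2.73 (SE 0.47, adjusted p 0.0393) and 3.05 (SE 0.45, adjusted p 0.0421), although it rose in the Krt79-positive cells too, where it was at 7891, 7334, 15416 and 19368 CPM. For Krt17, Tmem45a, the small heat shock gene Hspb1 and the elongase Elovl1, the differences from Krt79-positive cells were 3.78 (SE 0.56, adjusted p 0.0199), 3.57 (SE 0.57, adjusted p 0.0263), 3.23 (SE 0.49, adjusted p 0.0226) and 3.92 (SE 0.73, adjusted p 0.0444). Sprr1a, at 0 in the control sebaceous gland cells, passed the filter through the CerS4epi-/- mice alone. So did Asprv1, Spink5, Elovl1, Krt17 and Far1, with 3 to 6 counts in control replicate 1 and 0 in control replicate 2. The calls of these genes thus rest on the group in which they were high. For Sprr1a the fitted difference, 10.42 (SE 1.53, adjusted p 0.0246), depends in size on the prior count, is no bound and is not ranked. With 3 counts set over the control group, its log2 effect in the gland was at least 3.46, against 1.12 in Krt79-positive cells. Ctsb, a lysosomal protease, was at 14.9, 35.1, 239.5 and 213 CPM and differed from basal cells by 3.65 (SE 0.55, adjusted p 0.0456). Except Tmem45a and Tmsb4x, with 55 and 23 counts, each gene named here had fewer than 20 counts in the 13 control sebaceous gland cells together. Their counts lay to different degrees in the 11 cells of at least 5 Asprv1 counts. Ctsb had 149 counts in these cells and 42 in the other 44 of the CerS4epi-/- mice, Spink5 257 and 49, Far1 183 and 77 and Tmem45a 1509 and 122. Hspb1 had 269 and 131, Sprr1a 86 and 35, Elovl1 82 and 25, and Cst6 422 and 294. Krt17 had 2 counts in the 5 cells of replicate 1 against 57 in the other cells of that mouse, and 69 in the 6 cells of replicate 2 against 21. Tmsb4x had 55 counts in the 11 cells and 492 in the others. Without the 11 cells the differences from basal cells were 1.69 for Ctsb, 1.92 for Far1 and 2.00 for Cst6 (adjusted p 0.706, 0.709 and 0.642). The difference of Tmem45a from Krt79-positive cells was then -0.0799 (adjusted p 0.992).

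The 14 genes with a lower effect mostly rose in Krt79-positive cells: 11 of them were called higher in the Krt79-positive cells of the CerS4epi-/- mice. None was called in the sebaceous gland cells when all members and mice entered, and under the alternatives 13 of the 14 were called there in no more than 5 each. Carns1 was the exception. Mgst1 was at 29.3, 16.9, 90.0 and 98.2 CPM in Krt79-positive cells (log2 fold change 2.04, adjusted p 0.000102) and at 12.6, 11.96, 44.01 and 50.6 CPM in basal cells, while the sebaceous levels given above were lower in the CerS4epi-/- mice. The differences were -2.72 (SE 0.35, adjusted p 0.0118) and -2.64 (SE 0.26, adjusted p 0.0111). Cidea was at 0.630, 0, 11.1 and 15.9 CPM in Krt79-positive cells, a difference of -4.96 (SE 0.67, adjusted p 0.0118). Apoe rose there from 2663 and 1702 CPM to 11487 and 11007 CPM (log2 fold change 2.42, adjusted p 3.79e-05), with a difference of -1.87 (SE 0.34, adjusted p 0.0437). Idh1, the cytosolic isocitrate dehydrogenase that supplies NADPH for lipid synthesis, differed by -2.42 (SE 0.29, adjusted p 0.00654), and Gja1 by -2.96 (SE 0.32, adjusted p 0.00485). Osgin1, an oxidative stress response gene, was at 1.57, 0.847, 10.1 and 10.9 CPM in Krt79-positive cells and at 84.4, 140.3, 43.8 and 46.6 CPM in sebaceous gland cells, a difference of -4.12 (SE 0.71, adjusted p 0.0393). RNA of sebocytes in those cells was not tested as a part of this pattern.

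Carns1, carnosine synthase, differed in another way. It had 158, 1, 3 and 7 counts in sebaceous gland cells, and all 11 cells of control replicate 1 held it, with 3 to 32 counts and a median of 15, while a single cell of control replicate 2 held it, with 1 count. The genotype effect (log2 fold change -5.56, SE 0.79, adjusted p 0.0593) did not pass the threshold, but it did in 12 of 17 alternatives, with log2 fold changes of -6.33 to -4.70 over all 17. The difference from Krt79-positive cells was -6.08 (SE 0.56, adjusted p 0.00270). Its control level thus came from control replicate 1. Without that mouse the gene gave no value in either fit.

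**Figure D4:**
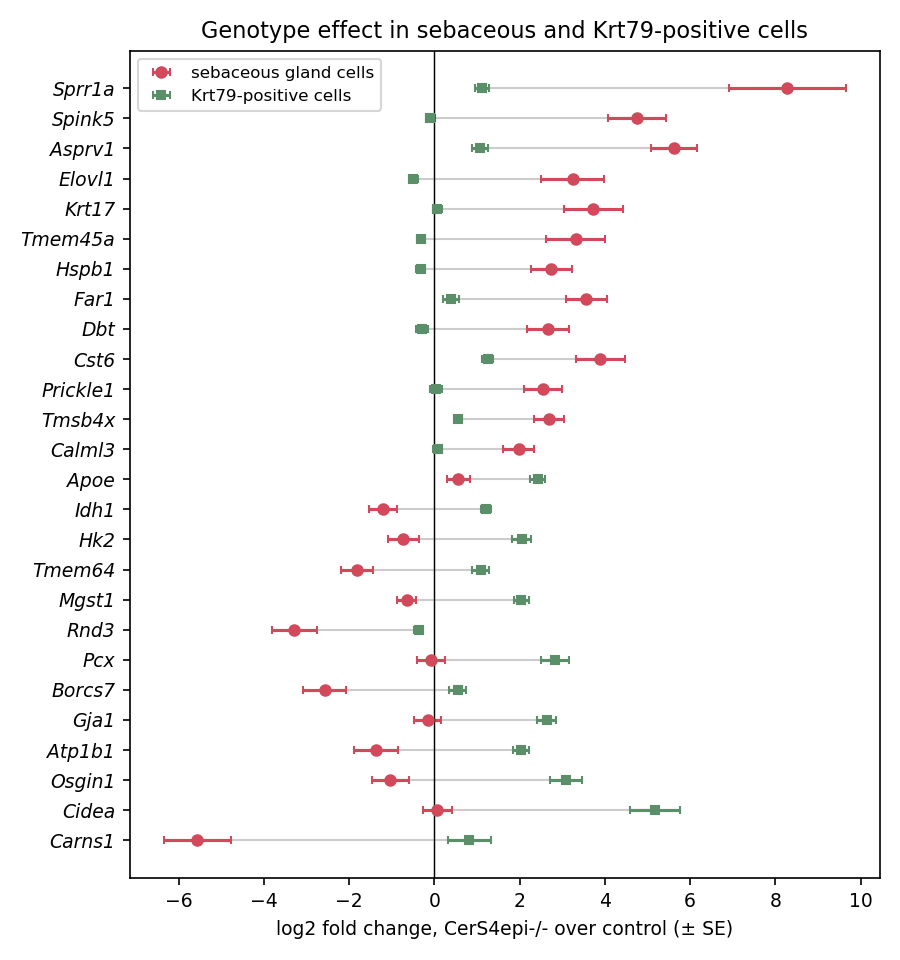
Log2 fold change of CerS4epi-/- over control (x axis, with standard errors) in sebaceous gland cells (red circles) and Krt79-positive cells (green squares) for 26 of the genes whose effect differed between the classes (y axis). Sprr1a to Calml3 lie to the right in sebaceous gland cells, and Apoe to Carns1 to the left, 10 of them with positive values in Krt79-positive cells that passed their own test; Sprr1a had 0 counts in the control sebaceous gland cells, so its point is no bound.

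The share of sebaceous gland cells among kept cells was 0.130% (exact 95% interval 0.0648 to 0.232%) and 0.0220% (0.00267 to 0.0795%) in the control mice and 0.266% (0.171 to 0.396%) and 0.410% (0.279 to 0.581%) in the CerS4epi-/- mice. The intervals cover counting error only. The means were 0.0759% ± 0.0762 and 0.338% ± 0.101 (SD, n = 2 each), a log2 ratio of 2.16 with an exact two-sided permutation p of 0.333, the smallest that 2 mice against 2 allow. edgeR on the cell numbers gave a log2 ratio of 2.14 with p = 0.0906. Leaving out each mouse in turn gave ratios of 3.94 and 1.38 without control replicates 1 and 2 and of 2.43 and 1.81 without CerS4epi-/- replicates 1 and 2. Both CerS4epi-/- mice were above both control mice, and the interval of control replicate 1 overlapped that of CerS4epi-/- replicate 1.

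**Figure D5:**
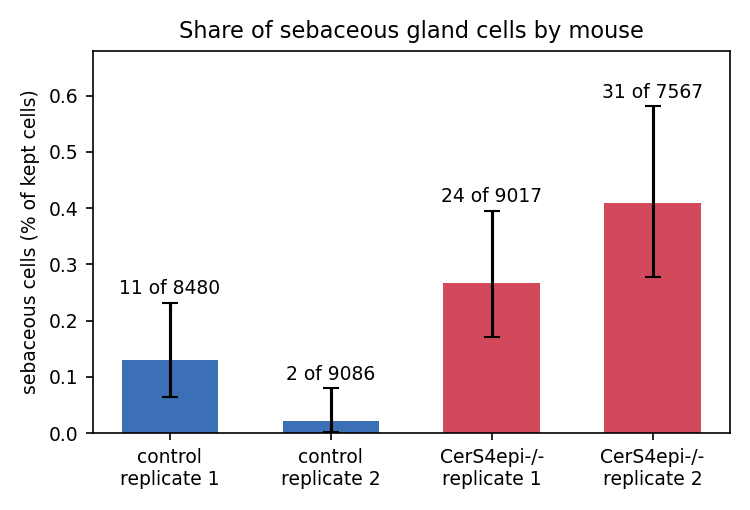
Share of sebaceous gland cells among the kept cells of each mouse (bars, y axis in percent) with exact 95% binomial intervals; numbers give sebaceous gland cells of kept cells. The CerS4epi-/- bars, 0.266% and 0.410%, are above the control bars, 0.130% and 0.0220%.

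The share has to be read beside the genes that chose the cells. The lowest sum of the 4 genes in a chosen cell was 48 and 35 in the control mice and 10 and 6 in the CerS4epi-/- mice, and the highest sum in a cell left out was 19, 13, 19 and 9. Sums of at least 6 outside the choice came from 1 gene alone. Of the 55 cells of the CerS4epi-/- mice, 14 lay below 35, the lowest control sum, and with a limit of 35 the log2 ratio was 1.72. Thinning each cell to 1200 counts before the choice gave 1.73. Elovl3 and Far2, which dominate the sums in the CerS4epi-/- mice, were higher in both of these mice than in both control mice.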

How the data were processed

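For each mouse the authors deposited a table of estimated counts of UMIs for 32479 genes, made, per the labels, with fastp 0.23.2 and STAR 2.7.10a (STARsolo with its expectation-maximization option for reads shared by genes) on GRCm39 with Gencode vM29, without a cell filter. Of the entries, 4.55% to 4.81% were not whole, so sums were rounded. Counts of each class were summed per mouse, since cells are not replicates; the study's own tests used random groups of pooled cells. Genotypes were compared with edgeR 4.0.16 (TMM, filterByExpr, quasi-likelihood test, Benjamini-Hochberg adjustment, threshold 0.05) in R 4.3.3, with DESeq2 1.42.0 as an alternative. SE is the absolute log2 fold change divided by the square root of F. Shares and cell values used Python 3.11.15, numpy 2.4.6 and scipy 1.17.1. The edgeR fit was also tested on simulated data, and since the outcome is not given here, no result rests on it.

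The genes used to choose the cells, and the cells against all others, were given no test. The members and the 21 gene lists were chosen with earlier results of these data known. Named were Cers4, the markers, the 12 leading genes, called genes, the 5 genes of highest control level of each lipid list, and the 10 and 5 largest called differences from Krt79-positive and basal cells; other named genes were chosen after their values were seen. Coordinates came from Gencode vM39 on the same build. Exact 95% intervals (Clopper-Pearson) and the limit of 3 counts for a count of 0 cover counting error only. In all, 3 list symbols matched no row, Ctgf and Loricrin among them, and the sphingolipid list is counted by the 39 symbols that did. A few genes that the rule names are not reported here.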

Additional observations from a re-analysis of the deposited data

Results flagged for a closer look

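The effect of genotype differed between sebaceous gland cells and Krt79-positive cells, in the test of the difference itself, for the 10 genes with the largest fitted differences. The log2 effect was higher in sebaceous gland cells by 4.89 for Spink5, by 4.83 for Asprv1, by 3.92 for Elovl1, by 3.78 for Krt17, by 3.57 for Tmem45a and by 3.23 for Hspb1. All of these genes except Tmem45a held fewer than 20 control counts. Spink5, Asprv1, Elovl1 and Krt17 passed the filter through the CerS4epi-/- mice alone. Sprr1a, fitted at 10.42, is not ranked among them, since it was at 0 in both control mice. Its effect in the gland was at least 3.46, with 3 counts set over the control group, against 1.12 in Krt79-positive cells. The differences were -6.08 for Carns1, -4.96 for Cidea and -4.12 for Osgin1. The calls of Carns1, Cidea, Spink5 and Asprv1 held in every alternative that gave a value. Carns1 gave none without control replicate 1, which held 158 of its control counts against 1 in control replicate 2. For Spink5 and Asprv1 the fit without the 11 cells of high Asprv1 gave none, so their calls were not tried there. With DESeq2 the calls of Sprr1a (4.73) and Krt17 were lost, at adjusted p values of 0.306 and 0.0772, with Krt17 at 3.76. Both were also lost when control replicate 1 was left out, at 0.498 and 0.0926. Elovl1 lost it in 4 of 10 alternatives (3.49 to 11.69, adjusted p 0.0585 to 0.385) and Osgin1 in 5 of 11 (adjusted p 0.0508 to 0.464), where its difference was -5.13 to -3.91. Without the 11 cells of at least 5 Asprv1 counts, Sprr1a (8.84), Krt17 (2.99), Hspb1 (1.86) and Tmem45a (-0.0799) were not called, so that only for Tmem45a did the direction turn, and Spink5, Asprv1 and Elovl1 were not tested. Without control replicate 1, where the control side was 2 cells, the fitted differences ran up to 15.57 for Tmem45a and are no bounds. For Cidea and Osgin1 the Krt79-positive cells rose and the sebaceous gland cells were not called. Against basal interfollicular cells the 5 largest differences, all higher in sebaceous gland cells, were 5.14 for Spink5, 4.96 for Asprv1, 3.65 for Ctsb, 3.49 for Far1 and 3.05 for Cst6. Asprv1 kept its call in 7 of 7 alternatives and Spink5 in 6 of 7, with no value for either without the 11 cells. Ctsb, Far1 and Cst6 kept theirs in 5 of 8 each. Ctsb lost it with DESeq2 (3.59, adjusted p 0.0532), with control replicate 1 left out (2.64, adjusted p 0.208) and without the 11 cells (1.69). Far1 lost it without either CerS4epi-/- mouse (3.61 and 3.53, adjusted p 0.0633 and 0.115), with a difference no smaller than with all mice, and without the 11 cells (1.92). Cst6 lost it without the mouse term (2.55, adjusted p 0.402), without control replicate 1 (12.66, no bound, adjusted p 0.0577) and without the 11 cells (2.00).

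Barcodes that met the gene sum but not the limits on cells, and so entered no comparison, were found in the CerS4epi-/- mice, 3 in replicate 1 and 6 in replicate 2, and in neither control mouse. Of these, 2 and 1 held under 1200 counts and 1 and 5 had over 20% mitochondrial counts. Their absence from the control mice was not tested.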

How the results depend on the processing

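The 3 genes called between genotypes became 9 with DESeq2's size factors in edgeR, 6 with DESeq2, 12 with at least 3 of the 4 genes detected, 27 with equal cell numbers, 9 with a gene sum of at least 10, 9 with a sum of at least 4, 124 without the filter on low counts, 116 with a spread shared with the Krt79-positive sums and 24 to 408 without 1 mouse. Chosen after seeing the data, a sum of at least 35 gave 22, and leaving out the 11 cells of at least 5 Asprv1 counts gave 0, 6 against Krt79-positive cells and 2 against basal cells. The replicate block gave 19. The correlation of the deviations of same-numbered mice was 0.0696. Control replicate 2 held 2 cells, so this value cannot decide whether same-numbered mice were processed together. A limit of 2000 counts, leaving the 4 genes out of the library size, leaving out cells with immune counts and an unrounded gene sum gave 3. The log2 fold change of Cers4 was -2.78 (adjusted p 0.141) with equal cell numbers and -2.90 (adjusted p 0.0556) without the 11 cells, in edgeR's test, and Cers4 was called in the other 17 alternatives (-3.41 to -2.83). The 27 differences from Krt79-positive cells became 15 with DESeq2, 16 with a sum of at least 10, 71 without the filter, 68 without a term for the mouse and 12 to 199 without 1 mouse; 33 with at least 6 Krt79 counts and 27 with DESeq2's size factors were within 1.5 times. The 8 differences from basal cells became 55 without the filter, 27 without the mouse term and 17 to 231 without 1 mouse, and 8 with DESeq2. Single genes changed sign in 41 of 947 repeats, among them Tmem45a, from 3.32 to -0.37 without the 11 cells, and Soat1, from -0.58 to 0.40 without control replicate 1. In 6 of the 41 either value was called: Agpat3 (2.32) and Elovl6 (0.29) without control replicate 1, Elovl4 (-0.82), Hacd2 (-0.50) and Msmo1 (-0.39) without control replicate 2, and the difference of Tmem45a from Krt79-positive cells (-0.0799) without the 11 cells. Their other extremes without 1 mouse were -1.25 for Agpat3, -0.25 for Elovl6, 15.24 for Elovl4 (against 0 control counts, no bound), 0.94 for Hacd2 and 1.67 for Msmo1. List medians moved by more than the spread between mice in 19 of 112 repeats, among them interfollicular differentiation markers, 5.84 without control replicate 1, and interferon genes, 0.26 to 3.69 without 1 mouse. Without control replicate 1 the median was also 0.60 for fatty acid synthesis, 0.81 for peroxisome and fatty acid oxidation, 1.08 for basal and peripheral sebocyte genes and 0.76 for proliferation genes. The cause of these moves was not tested, except that fewer mice or genes entered some fits. Without control replicate 1 the median over all genes was 0.61, and without the filter 0.39, against 0.06. The log2 ratio of shares stayed positive, from 1.60 with a mitochondrial limit of 10% to 2.33 with a sum of at least 4, and from 1.38 to 3.94 without 1 mouse. With the 10% limit control replicate 2 held no sebaceous gland cell and expression was not fitted. The 2 cells of control replicate 2 limit all comparisons: a count of 0 there allows up to 105 CPM.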
